A study of Homo sapiens with 4 samples.

Results

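The 10 genes described here encode feedback inhibitors and transcriptional outputs of the ERK pathway: the phosphatases DUSP1, DUSP4, DUSP5 and DUSP6, the Sprouty and SPRED proteins SPRY2, SPRY4 and SPRED1, the ETS transcription factors ETV4 and ETV5, and PHLDA1. They were chosen by name, and every probe set whose platform annotation gives one of these symbols and no other was kept, which gave 29 of the 49293 probe sets and 10 of the 18132 genes with a single-gene probe set. The cells were U87MG, an established human glioma line, transiently transfected with the miR-490 overexpression vector PC-490 or with its control vector PCDNA3.1 (+). Both groups were harvested at 48 h, and 100 ng of total RNA per sample went onto PrimeView arrays, 2 for cells with the miR-490 vector and 2 for cells with the control vector. Whole wells were profiled, so cells that took up no plasmid contributed to both groups, and fewer cells of a kind cannot be told apart from less RNA per cell. The share of transfected cells and the level of miR-490 were not analysed here, and nothing in the labels states that the replicates came from separate cultures, so the p-values below measure the spread between these arrays, which may be technical.

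Growth factor receptors signal through RAS, RAF and MEK to the kinase ERK, which enters the nucleus and induces a set of genes within minutes to hours. Several of the products act back on the pathway: dual-specificity phosphatases remove the activating phosphates from ERK and related kinases, and Sprouty and SPRED proteins interfere with signalling at the level of the receptor, RAS and RAF. Because their transcripts follow ERK output, DUSP6, SPRY2, SPRY4, ETV4, ETV5 and PHLDA1 are widely used as transcriptional readouts of the pathway in tumour cells.

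The vector under test carries miR-490, whose hairpin gives 2 mature microRNAs. They are shown because the seed, bases 2 to 8 counted from the 5' end and written in capitals, is the stretch through which a microRNA mainly recognises its messenger RNAs. The sequences are from RefSeq (GRCh38.p14, plus strand), hsa-miR-490-3p at chr7:136903242-136903263 and hsa-miR-490-5p at chr7:136903205-136903224. The seeds of the 2 arms differ.
hsa-miR-490-3p: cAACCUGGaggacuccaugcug
hsa-miR-490-5p: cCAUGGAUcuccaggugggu

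No feedback gene passed the test. The difference was under 0.1 on the log2 scale at 16 of the 29 probe sets (55.2%), beside 64.2% of all probe sets. With limma on all 49293 probe sets and Benjamini-Hochberg adjustment, 0 of the 29 probe sets and 0 of all probe sets (0%) had an adjusted p under 0.05, and the members' adjusted p lay between 0.900 and 1.00. At an unadjusted p under 0.05 there was 1 member probe set, of ETV5 and lower with miR-490, where 5.15% of all probe sets reached that level, 2.48% on the lower and 2.66% on the higher side. The mean was lower with miR-490 at 18 of the 29 probe sets, higher at 10 and equal at 1, with a median log2 fold change of -0.045, beside a median of 0 over all probe sets. The groups did not overlap, both miR-490 values lying below both control values, at 10 of the 29 probe sets (34.5%), where the share over all probe sets was 15.6%. These 10 belonged to 6 of the 10 genes, and 5280 of all 18132 genes had at least 1 such probe set. On the higher side 1 of the 29 did not overlap, where the share over all probe sets was also 15.6% (31.2% on both sides together). Among probe sets above the median level, 9 of 26 members were separate on the lower side and 1 on the higher side, where the shares over all such probe sets were 17.6% and 14%. Probe sets of 1 gene measure the same transcripts and are not independent, and 2 arrays against 2 cannot give an exact two-sided permutation p under 0.333 for any of them.

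These counts leaned on single arrays. Without miR-490 replicate 2 the mean was lower at 14 probe sets and higher at 15, with a median of 0.01, while without miR-490 replicate 1 the mean was lower at 21, the median was -0.10 and 0 members reached an unadjusted p under 0.05 (limma; 3.61% of all probe sets did). Without control replicate 2 the median was -0.075 and 3 member probe sets reached that level, all lower, where 6.18% of all probe sets did. They were a pair of DUSP6 probe sets and 1 of PHLDA1, and did not include the ETV5 probe set called on all 4 arrays. With an intensity trend in the fit 5 members reached it, all lower and none past the adjusted threshold, where 4.71% of all probe sets did.

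**Figure D1:**
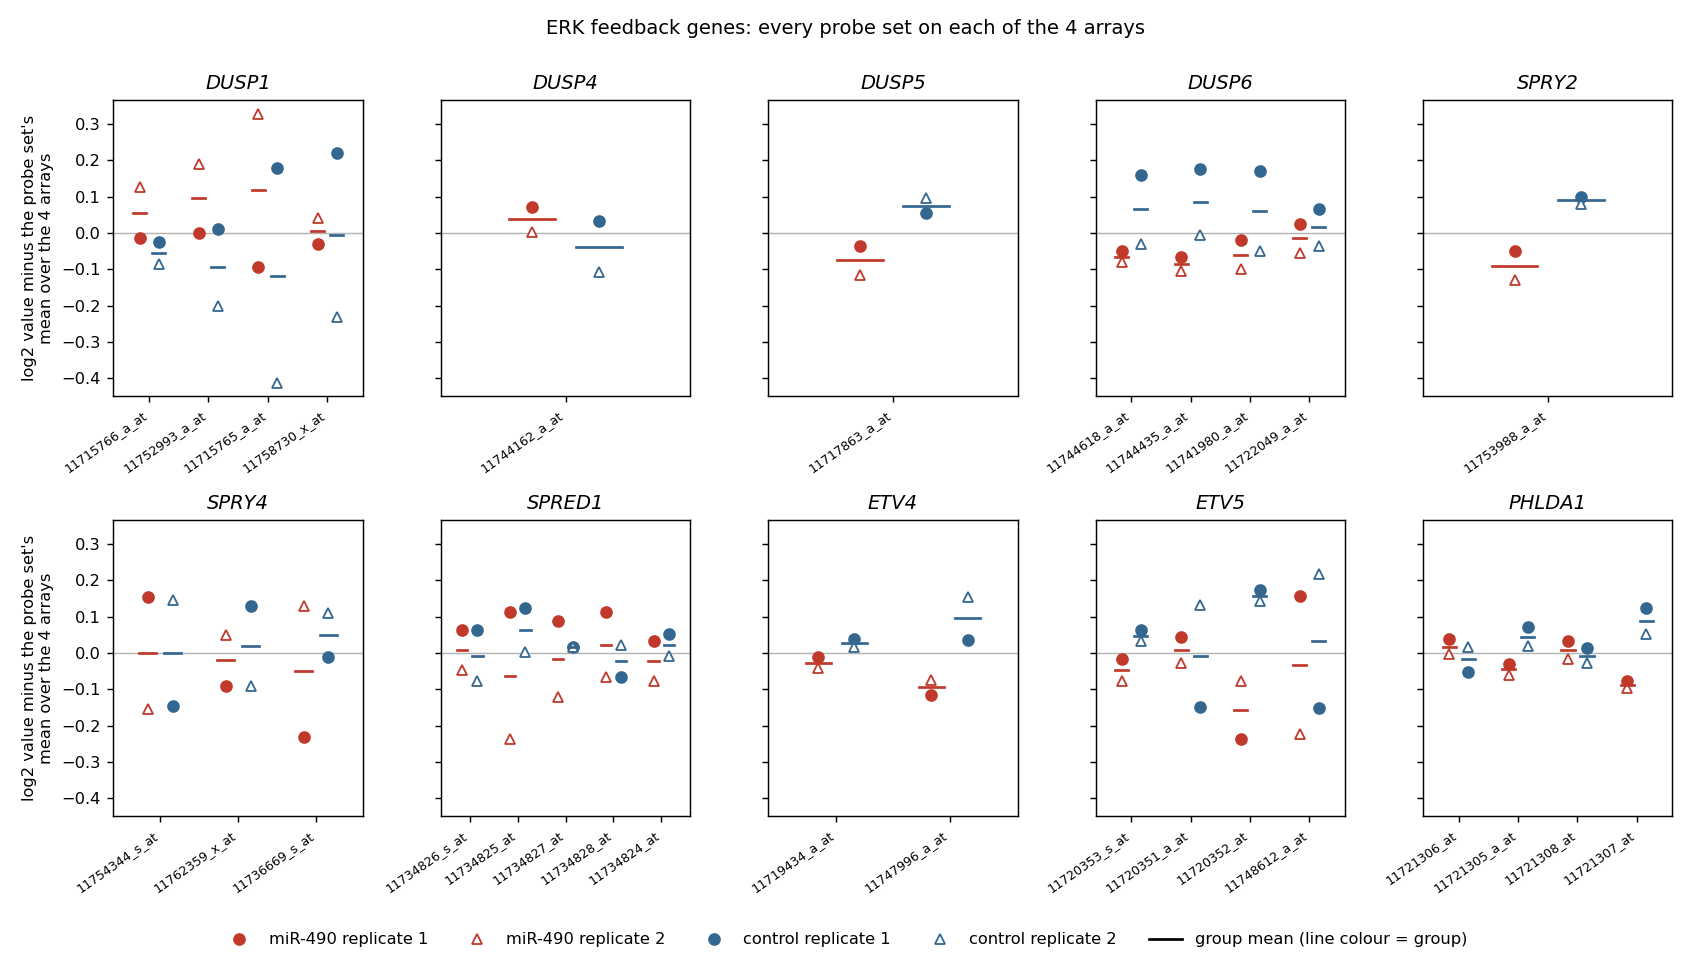
Value of each of the 29 probe sets on each array, as the deposited log2 value minus the probe set's mean over the 4 arrays (y axis), by gene and probe set (x axis); red symbols are miR-490 arrays, blue symbols control arrays, filled circles replicate 1, open triangles replicate 2 and short lines group means. Both miR-490 arrays lie below both control arrays at the single probe sets of DUSP5 and SPRY2 and at both probe sets of ETV4. At every probe set of DUSP1 and SPRY4, at least 1 of the replicate pairs is further apart than the group means.

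The 4 arrays had similar values, with medians of 5.15 to 5.17 and correlations of 0.9975 to 0.9980 between arrays across probe sets. Mesenchymal glioma genes were bright, VIM at 13.90 to 13.92, FN1 at 13.43 to 13.49 and CD44 at 11.82 to 12.14 (log2), whereas the astroglial and glial markers GFAP (5.56 to 5.81) and OLIG2 (3.59 to 3.75) were near or below the median probe set. Of the other measured glioma line markers, TNC (11.75 to 11.95) and CHI3L1 (10.99 to 11.21) were bright. NES (4.0 to 4.3) and S100B (3.26 to 3.55) were below the median level, each at its brightest probe set. The pan-leukocyte marker PTPRC was at 2.43 to 2.62, near the lower end of the values, although CD68, a macrophage marker also expressed in other cells, was at 10.16 to 10.25. The neuron gene SNAP25 read 8.47 and 8.54 with miR-490, against 8.65 and 8.67 with the control vector, at its brightest probe set, and its other probe sets had differences of -0.075 to 0.245. The other measured neuron markers were below the median level at their brightest probe sets, SYT1 at 3.06 to 3.25, RBFOX3 at 4.04 to 4.14 and STMN2 at 4.36 to 4.87. Groups were separate on the lower and the higher side at 4 and 0 of 14 neuron probe sets, 3 and 7 of 20 leukocyte, 1 and 6 of 18 epithelial, 3 and 3 of 11 endothelial and 4 and 2 of 39 glioma ones. Over all probe sets the share was 15.6% on each side. Above the median level were 3 of the neuron, 2 of the leukocyte, 1 of the epithelial, 2 of the endothelial and 27 of the glioma probe sets. The part of these markers in the members' differences was not tested. No probe set of the glioma, leukocyte, epithelial, neuron or endothelial marker lists passed the adjusted threshold (limma).

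Of the phosphatases, DUSP6 was lower with miR-490 at all 4 of its probe sets and DUSP5 at its only one, while DUSP1 was higher at all 4 and DUSP4 at its only one. DUSP6 is the cytoplasmic phosphatase selective for ERK. Its probe set with the highest mean (11744618_a_at) read 9.84 and 9.81 in the miR-490 arrays, against 10.05 and 9.86 in the control arrays. A second one (11744435_a_at) read 9.29 and 9.25 with miR-490, against 9.53 and 9.35 with the control vector. At both the groups did not overlap, and the higher control value was that of replicate 1. Their log2 fold changes were -0.13 (SE 0.089) and -0.17 (SE 0.087), that is 0.914 and 0.889 of the control level (adjusted p = 0.917 and 0.900, limma). The probe set 11741980_a_at read 9.31 and 9.23 in the miR-490 arrays, against 9.50 and 9.28 in the control arrays, a difference of -0.12. At 11722049_a_at the values were 9.34 and 9.26 with miR-490, against 9.38 and 9.28 with the control vector, a difference of -0.03, and at both of these the groups overlapped. At all 4 probe sets control replicate 1 exceeded control replicate 2, by 0.10 to 0.22, and that distance was larger than the distance between the group means each time.

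DUSP5, a nuclear phosphatase of ERK, read 7.75 and 7.67 in the miR-490 arrays, against 7.84 and 7.88 in the control arrays. The groups were separate, and each replicate distance (0.08 and 0.04) was smaller than the difference of -0.15 on the log2 scale (95% interval -0.33 to 0.032; adjusted p = 0.900, limma). Its mean was 0.901 of the control level.

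DUSP1, the phosphatase of the immediate early response that acts on p38 and JNK as well as ERK, had the widest replicate spread of the set. The probe set with the highest mean (11715766_a_at) read 8.81 and 8.95 with miR-490, against 8.80 and 8.74 with the control vector. The difference was 0.11 on the log2 scale (adjusted p = 0.925, limma; 95% interval -0.10 to 0.32). These groups were separate by a margin of 0.01 only. A further probe set (11715765_a_at) read 6.68 and 7.10 in the miR-490 arrays, against 6.95 and 6.36 in the control arrays. There the replicates were 0.42 and 0.59 apart, more than the difference of 0.235 between the means, and without control replicate 2 the difference was -0.06. The probe set 11752993_a_at read 8.61 and 8.80 with miR-490, against 8.62 and 8.41 with the control vector, a difference of 0.19. At 11758730_x_at the values were 6.38 and 6.45 in the miR-490 arrays, against 6.63 and 6.18 in the control arrays, a difference of 0.01. Both had overlapping groups. Without control replicate 2 the difference at 11758730_x_at was -0.215. Its suffix x is one by which the manufacturer marks probes that may also match other sequences. At all 4 DUSP1 probe sets replicate 2 was the higher miR-490 array and replicate 1 the higher control array. DUSP4, a nuclear phosphatase of ERK and JNK, read 9.52 and 9.45 with miR-490, against 9.48 and 9.34 with the control vector, a difference of 0.075 with overlapping groups (adjusted p = 0.956, limma).

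Among the Sprouty and SPRED genes, only SPRY2 had separate groups. Its single probe set read 8.18 and 8.10 in the miR-490 arrays, against 8.33 and 8.31 in the control arrays, so that all 4 values were ordered by vector. Its mean was 8.14 ± 0.057 with miR-490 and 8.32 ± 0.014 with the control vector (log2, SD, n = 2 each). The log2 fold change was -0.18 (SE 0.069), 0.883 of the control level, with an unadjusted p of 0.0501 and an adjusted p = 0.900 (limma), and 6.03% of all probe sets had a difference as low or lower.

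SPRY4, a close relative of SPRY2, showed no ordering by vector. At its only probe set above the median level (11754344_s_at) the values were 6.23 and 5.92 with miR-490, against 5.93 and 6.22 with the control vector, and the means were equal (95% interval -0.40 to 0.40, limma). The other SPRY4 probe sets were dim, with values of 2.77 to 3.18, where differences are compressed. SPRED1, which recruits neurofibromin to inactivate RAS, had overlapping groups at all 5 probe sets, with log2 fold changes of -0.125 to 0.045. Its brightest probe set (11734826_s_at) read 8.82 and 8.71 in the miR-490 arrays, against 8.82 and 8.68 in the control arrays. The lowest of its differences, at 11734825_at, came from 8.51 and 8.16 with miR-490, against 8.52 and 8.4 with the control vector. At all 5 SPRED1 probe sets miR-490 replicate 1 exceeded miR-490 replicate 2, by 0.11 to 0.35.

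The ETS factors ETV4 and ETV5, which bind promoters and enhancers of growth and invasion genes, held the most negative differences among the 10 genes, and those of the 4 ETV5 probe sets were unequal in size and in sign. The ETV5 probe set 11720352_at read 6.53 and 6.69 in the miR-490 arrays, against 6.94 and 6.91 in the control arrays. Both miR-490 values lay at least 0.22 below both control values. The log2 fold change was -0.315 (SE 0.083; 95% interval -0.53 to -0.099), 0.804 of the control level, the one member interval that excluded 0, with an unadjusted p of 0.0138 and an adjusted p = 0.900 (limma). Over all probe sets 0.917% had a difference as low or lower. The difference was -0.235 to -0.395 with 1 array left out, and the unadjusted p was 0.0513 without miR-490 replicate 1, 0.0907 without control replicate 1 and 0.0757 without control replicate 2 (limma).

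The brightest ETV5 probe set (11720353_s_at) read 8.77 and 8.71 with miR-490, against 8.85 and 8.82 with the control vector, again with separate groups but a difference of -0.095 (interval -0.27 to 0.080). The probe set 11720351_a_at read 7.37 and 7.30 in the miR-490 arrays, against 7.18 and 7.46 in the control arrays, a difference of 0.015. The probe set 11748612_a_at read 6.38 and 6.00 with miR-490, against 6.07 and 6.44 with the control vector, a difference of -0.065 with replicates 0.38 and 0.37 apart. The difference at 11720352_at therefore had no counterpart of its size at the other 3 probe sets of the gene.

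ETV4 was lower at both probe sets with separate groups. The one above the median level (11719434_a_at) read 5.61 and 5.58 with miR-490, against 5.66 and 5.64 with the control vector, a difference of -0.055. The dimmer one (11747996_a_at) read 4.75 and 4.79 in the miR-490 arrays, against 4.90 and 5.02 in the control arrays, a difference of -0.19 (95% interval -0.39 to 0.0077; adjusted p = 0.900, limma), or 0.877 of the control level. At both probe sets the difference was larger than either replicate distance, although at the brighter one it left 0.963 of the control level.

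PHLDA1, a pleckstrin-homology-like protein induced by ERK and linked to the control of growth and cell death, had separate groups at some of its 4 probe sets and overlapping ones at the rest. At 11721307_at the values were 8.26 and 8.24 with miR-490, against 8.46 and 8.39 with the control vector, a log2 fold change of -0.175 (SE 0.068; unadjusted p 0.0518, adjusted p = 0.900, limma). At 11721305_a_at they were 10.51 and 10.48 in the miR-490 arrays, against 10.61 and 10.56 in the control arrays, a difference of -0.09. The groups were separate at both. At 11721306_at, the brightest, the values were 10.64 and 10.60 with miR-490, against 10.55 and 10.62 with the control vector, a difference of 0.035. At 11721308_at the groups also overlapped, with a difference of 0.015.

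**Figure D2:**
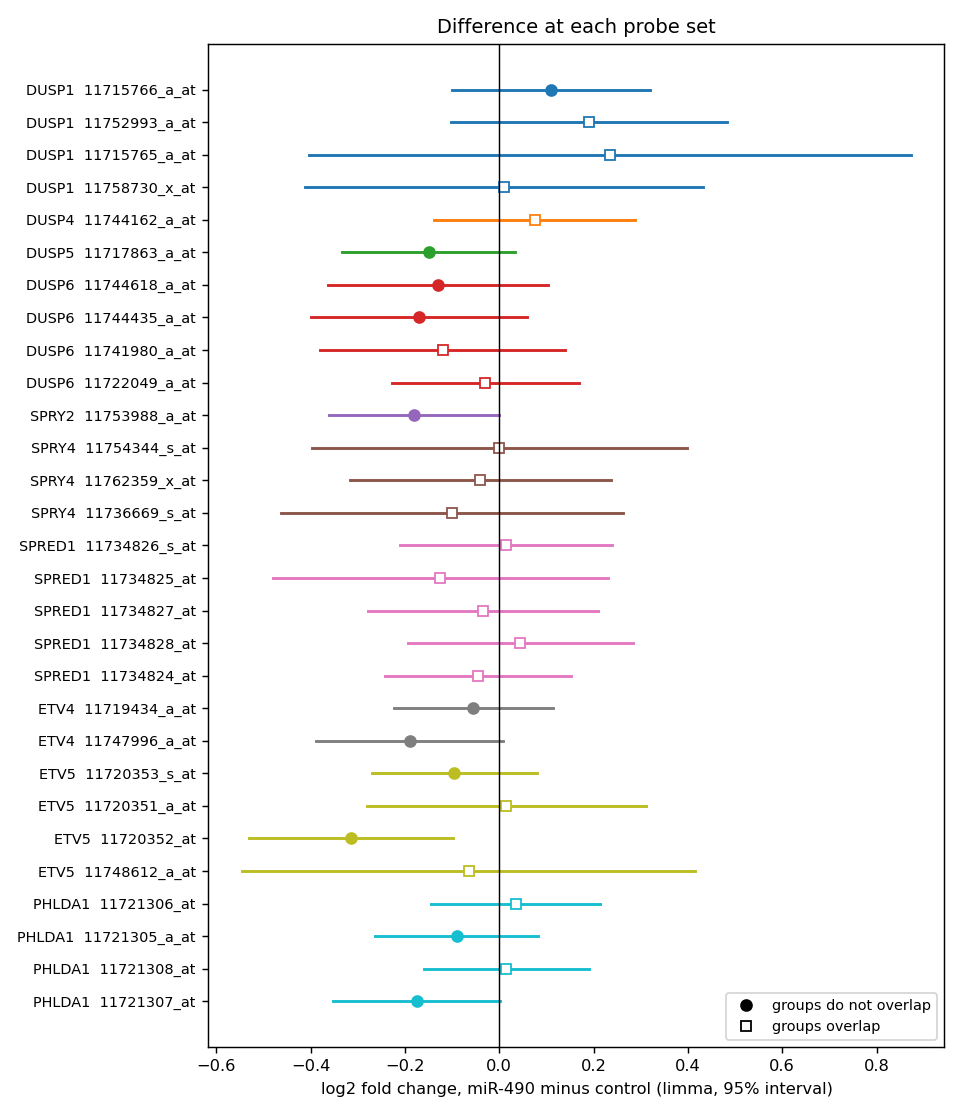
Log2 fold change of miR-490 minus control (x axis) at each of the 29 probe sets (y axis), with the 95% interval of the limma fit, filled circles where the groups did not overlap and open squares where they did; colours separate the genes. All 29 intervals lie within -0.55 and 0.87, and 1, at the ETV5 probe set 11720352_at, excludes 0.

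The intervals bound what the arrays could show. All 29 lay inside a log2 difference of 1 in either direction, which would double or halve a level, and 26 lay inside 0.5. Of all 49293 probe sets, 49231 lay inside 1 and 43648 inside 0.5, so this was not particular to the members. The widest belonged to DUSP1 (upper bound 0.87) and ETV5 (lower bound -0.55). An adjusted p of 0.900 or more does not show that a gene was equal in the groups.

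The median size of the difference between replicates over the 29 probe sets was 0.08 between the miR-490 arrays and 0.12 between the control arrays, while that between the vector means was 0.09. Over all probe sets the corresponding medians were 0.09, 0.10 and 0.07, and a difference between means of 2 arrays has less scatter than one between single arrays. The vector difference exceeded both replicate differences at 8 of the 29 probe sets (27.6%), against 21.7% of all probe sets. Replicate 1 was higher than replicate 2 at 21 of 29 members in the miR-490 pair (72.4%, against 48.4% of all probe sets) and at 20 of 29 in the control pair (69.0%, against 44.8%). Replicate 1 was thus the higher array of its group at most members, and the part of this in the vector differences was not tested.

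**Figure D3:**
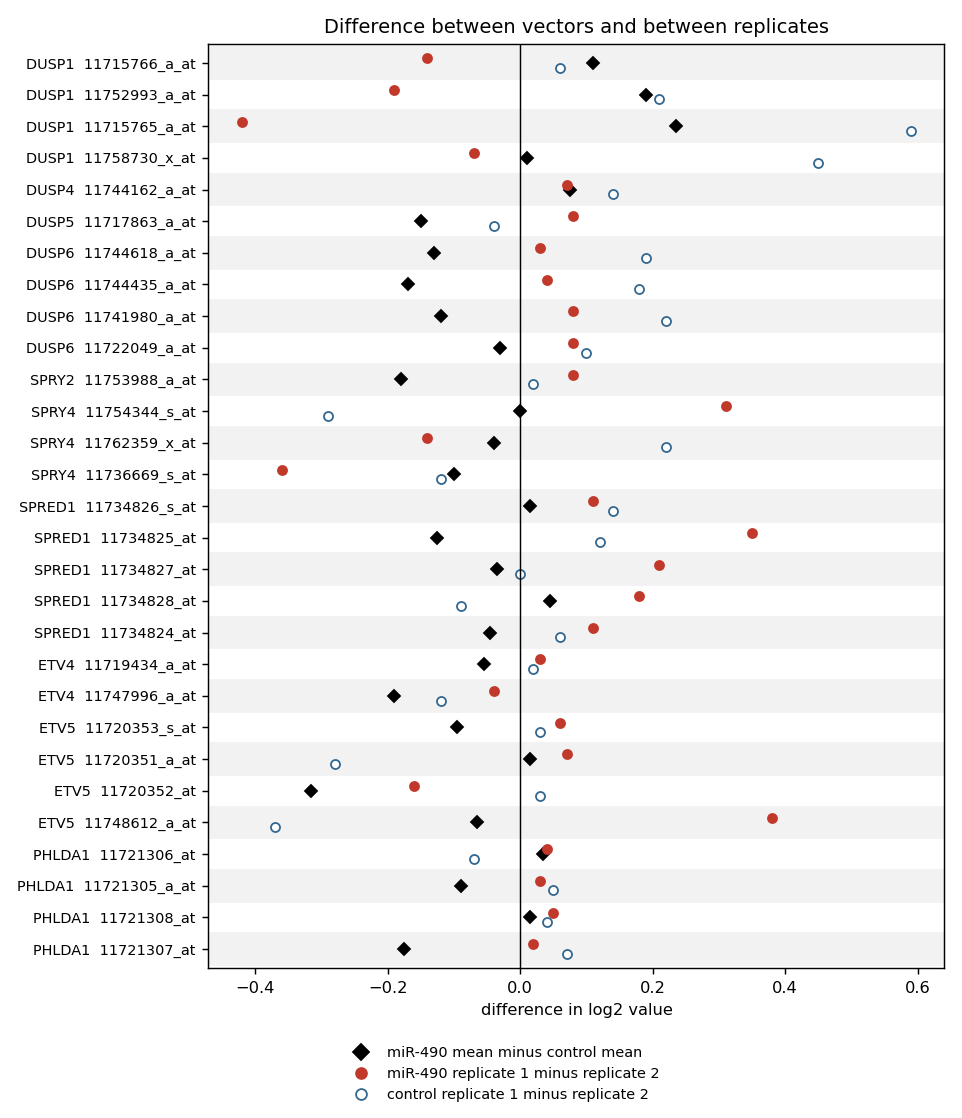
Difference in log2 value (x axis) at each of the 29 probe sets (y axis): black diamonds are the miR-490 mean minus the control mean, red circles miR-490 replicate 1 minus replicate 2, and open blue circles control replicate 1 minus replicate 2. DUSP6 has all 4 diamonds to the left of 0 and all 8 circles to the right, and DUSP1 has blue circles up to 0.59 and red circles down to -0.42.

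The other genes of the pathway gave 0 adjusted calls in 185 probe sets of 50 genes, with a median log2 fold change of -0.005 (limma). The 9 other MAP kinase phosphatases had 12 probe sets lower, 12 higher and 1 equal, with a median of 0 and 0 at an unadjusted p under 0.05. Compared at the brightest probe set of each gene, the smallest p belonged to DUSP2 (0.914 of the control level), DUSP9 (1.06) and DUSP14 (1.03). DUSP2 and DUSP9 were dim there, with means of 3.035 and 3.0425 (log2), and their groups overlapped. The Sprouty and SPRED genes SPRY1, SPRY3, SPRED2 and SPRED3 had log2 fold changes of -0.06 to 0.09 over 10 probe sets, with overlapping groups at every one, so the separation at SPRY2 had no counterpart among them.

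ETV1, the third factor of the family that holds ETV4 and ETV5, was lower at 8 of 8 probe sets, by -0.005 to -0.125, with separate groups at 1. Its brightest probe set read 10.11 and 10.10 in the miR-490 arrays, against 10.23 and 10.13 in the control arrays. ELK4 and ELK3, ETS factors that bind with serum response factor, had differences of -0.075 and -0.065 at their brightest probe sets, ELK4 with a range of -0.105 to 0.185 over its 4. ELK1, of the same group, was higher at 3 of 3 probe sets (0.005 to 0.225), with separate groups at 1. PHLDA2 and PHLDA3, relatives of PHLDA1, were at 1.06 and 0.976 of the control level at their brightest probe sets.

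The list of other ERK output genes held both directions. FOS, a subunit of AP-1, was higher at 4 of 4 probe sets (0.34 to 0.67) and EGR1, a zinc-finger factor, at 4 of 6 (-0.095 to 0.59 over all 6). An unadjusted p under 0.05 (limma) was reached at 7 of these 10 probe sets and at 8 of the 34 of the list. Over all probe sets 5.15% reached that level. EGR1 read 7.37 and 7.31 with miR-490, against 6.87 and 7.0 with the control vector, and FOS read 6.46 and 6.53, against 6.12 and 6.19, both at an adjusted p = 0.900. FOSL1, another AP-1 subunit, was lower at 6 of 6 probe sets (-0.16 to -0.06), CCND1, cyclin D1, at 4 of 4 (-0.145 to -0.075) and EPHA4, an ephrin receptor, at 4 of 4 (-0.25 to -0.055). Over this list 12 of 34 probe sets were lower and 8 higher without overlap (35.3% and 23.5%), where 15.6% of all probe sets fell on each side. The cytokine gene LIF was at 0.859 of the control level at its brightest probe set (log2 fold change -0.22), and its others had log2 fold changes of -0.03 to 0.22.

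Upstream of ERK, the 11 measured genes of the core cascade had 24 probe sets higher, 21 lower and 3 equal, with a median of 0.0075. NF1 alone supplied 21 of these 48 probe sets, 11 of them higher and 9 lower. KSR1, a scaffold for RAF and MEK, was dim and at 0.832 of the control level. At their brightest probe sets ARAF, a RAF kinase, was at 1.08 and SOS1, the exchange factor that loads RAS with GTP, at 1.06. Their other probe sets had log2 fold changes of -0.045 to 0.05 for ARAF and -0.15 to 0.025 for SOS1. Among 11 measured receptors and ligands the median was -0.0025. EREG, the EGF receptor ligand epiregulin, read 7.91 and 7.71 in the miR-490 arrays, against 8.33 and 8.20 in the control arrays, a fold of 0.730 (adjusted p = 0.900, limma), and its 3 other probe sets had log2 fold changes of -0.27 to 0.08. FGF2, a fibroblast growth factor, was lower without overlap at 3 of 3 probe sets (-0.39 to -0.185), and HBEGF, another EGF receptor ligand, at 2 of 2 (-0.31 and -0.095). TGFA, a further EGF receptor ligand, was higher at 4 of 4 (0.02 to 0.245), with separate groups at 2, and PDGFRA, a PDGF receptor, at 4 of 4 (0.005 to 0.165) with overlapping groups. Over the list 10 of 50 probe sets were separate on the lower side and 5 on the higher (20% and 10%), beside 15.6% of all probe sets on each.

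**Figure D4:**
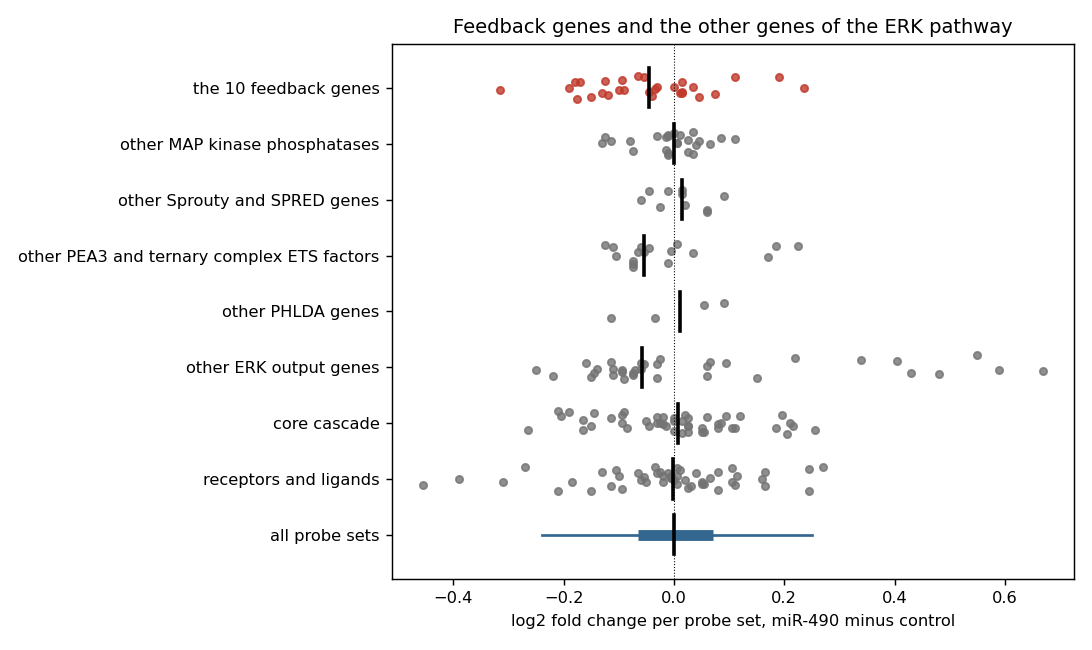
Log2 fold change of miR-490 minus control at each probe set (x axis) for the 10 feedback genes (red) and 7 lists of other ERK pathway genes (grey), with black bars at the medians; the vertical scatter within a row only separates points. The bottom row gives all 49293 probe sets, with the thick bar over the middle 50% and the thin line over the middle 95% (-0.24 to 0.25); 1 member, the ETV5 probe set at -0.315, lies outside the thin line.

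Promoter sequence was compared for the members that RefSeq windows cover, because DUSP1 on the one side and DUSP6 and SPRY2 on the other differed in sign at every probe set, a choice made after their values were seen. Windows of 250 bases before the start were found for 6 of the 10 genes. Searched on both strands were TGACG, the core of the site of CREB and ATF factors, with its full palindrome TGACGTCA, the AP-1 site TGANTCA, the ETS site CCGGAA and the CArG box of serum response factor. The 3 windows below (GRCh38.p14, minus strand, written 5' to 3') are DUSP1 at chr5:172771196-172771445, DUSP6 at chr12:89352502-89352751 and, of 3 listed starts of SPRY2, the one farthest upstream, at chr13:80341127-80341376. Capitals mark matches of TGACG, of the AP-1 site and of CCGGAA.
DUSP1: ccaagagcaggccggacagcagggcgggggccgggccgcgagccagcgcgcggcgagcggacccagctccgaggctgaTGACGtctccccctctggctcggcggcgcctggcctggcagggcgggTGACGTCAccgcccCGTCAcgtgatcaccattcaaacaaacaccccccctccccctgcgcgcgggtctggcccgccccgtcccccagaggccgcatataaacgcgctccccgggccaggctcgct
DUSP6: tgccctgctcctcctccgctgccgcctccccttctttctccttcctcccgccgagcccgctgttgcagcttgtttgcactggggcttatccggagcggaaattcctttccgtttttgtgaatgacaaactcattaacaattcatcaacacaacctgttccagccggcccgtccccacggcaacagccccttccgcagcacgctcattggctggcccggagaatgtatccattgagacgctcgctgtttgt
SPRY2: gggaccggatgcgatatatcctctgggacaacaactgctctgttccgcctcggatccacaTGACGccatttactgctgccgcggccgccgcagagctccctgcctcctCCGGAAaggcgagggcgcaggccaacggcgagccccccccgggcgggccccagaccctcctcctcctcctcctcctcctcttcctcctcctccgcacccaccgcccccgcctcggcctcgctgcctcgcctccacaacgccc

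The DUSP1 window held 4 TGACG matches, and a pair of these, on opposite strands, forms the palindrome TGACGTCA at 125 to 118 bases before the start. Of all 35116 windows of this length, 1.65% held TGACGTCA and 21.2% held TGACG. The SPRY2 window held 1 TGACG and 1 CCGGAA match, CCGGAA being present in 14.5% of all windows, and PHLDA1 also had 1 CCGGAA match. The DUSP6 window had none of the 5 motifs, nor did that of SPRED1, and SPRY4 had 1 TGACG match. The other windows of SPRY2 held none. No member window held TGANTCA (6.57% of all) or a CArG box (1.16%). A match is a string of letters in these windows. The printed windows were picked by the direction of expression differences, none of which passed the adjusted threshold (limma). Whether the motifs go with those differences was not tested.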

How the data were processed

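Log2 expression values per probe set were deposited by the authors, who made them with RMA, per the submitters' processing notes, with software and settings not given in the sources used here. RMA corrects background, equalises the distributions of the arrays and summarises the probes of a set, so a shift of most transcripts cannot be seen and dim differences are compressed. Groups and replicate numbers came from the sample titles. Of 49293 probe sets, the platform annotation gives 1 symbol for 44988, more than 1 for 1832 and no symbol for 2473.

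The limma package (3.58.1, under R 4.3.3) was used to fit all probe sets together, with lmFit and eBayes and neither block nor trend. Tests were two-sided, p-values were adjusted over the whole table by Benjamini-Hochberg, and the threshold was 0.05. The fit was also run on simulated arrays, with independent noise drawn from its own variance model. Such arrays hold no replicate shift shared between probe sets, so that run cannot speak to one. Precision is limited by having 4 arrays, and the median SE over the members was 0.0859. All members are named with every probe set. Of the 7 pathway lists, up to 3 genes per list with the smallest p at their brightest probe set are named. Further ones (FOSL1, CCND1, EPHA4, ELK1, NF1, TGFA, PDGFRA, the Sprouty and SPRED relatives) were chosen after their values were seen. The members and lists were chosen with earlier results of these data known, and 7 listed pathway genes were not analysed here. Slide, scan and detection calls were not used here. Alternatives were quantile normalisation, centring, an intensity trend, a level filter, 1 or the mean of all probe sets per gene, the replicate number as a block and each array left out.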

Additional observations from a re-analysis of the deposited data

How the results depend on the processing

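No probe set, member or other, passed the adjusted threshold in any alternative run (limma). Member probe sets at an unadjusted p under 0.05 numbered 1 as reported, 2 on quantile-normalised values (5.17% of all probe sets), 4 on median-centred values (5.15%), 5 with an intensity trend (4.71%), 4 among probe sets above the median level (4.91%), and 0 (without miR-490 replicate 1) to 3 (without control replicate 2) with 1 array left out; all were lower with miR-490 and the cause was not tested. Over the whole table the count was 2537, and by construction fewer with fewer features: 1209 above the median level, 1121 with 1 probe set per gene and 959 with probe sets averaged by gene; it ranged from 1679 (without miR-490 replicate 2) to 3048 (without control replicate 2) with 1 array left out. The counts of members by direction were tried under other settings chosen after seeing the data. Without overlap, 10 members were lower as reported (15.6% of all probe sets), 10 on quantile-normalised (16.6%) and 10 on centred values (18.1%). With 1 array left out 11 to 17 were lower (17 without miR-490 replicate 1, 16 without control replicate 2). Fewer arrays make separation easier, and 29.9% to 33.1% of all probe sets were then lower without overlap. On the higher side 1 member was separate as reported (15.6% of all probe sets), 2 on quantile-normalised (16.3%) and 0 on centred values (13.8%). With 1 array left out 3 to 7 members were higher without overlap, where 30.9% to 35.1% of all probe sets were. With the replicate block there were 0 probe sets past the threshold, 1 member and 1936 of all probe sets at an unadjusted p under 0.05. Deviations of same-numbered arrays correlated at -0.0844 across all probe sets and at -0.517 across the 29 members, and nothing in the labels ties a number to a shared batch. Of 278 alternatives of single members, 22 had the opposite sign to the reported value, 20 of them with 1 array left out and none called; they were in DUSP1, DUSP6, SPRY4, SPRED1, ETV5 and PHLDA1. A further 3 came to 0, and 7 belonged to the SPRY4 probe set reported at 0. Signal near the floor limits 2 SPRY4 probe sets.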
